A study of Mus musculus with 2 samples.

Results

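Esr1, Pgr, Prlr, Nr3c1 and Ghr encode the receptors through which the mammary epithelium responds to estrogen, progesterone, prolactin, glucocorticoids and growth hormone. They were chosen by name from the feature table of a single-cell RNA-seq study of mouse mammary cells, 5 of 31053 genes. The study compared 1 library of each genotype. The cKO library came from K8-CreERT2;miR-200c/141-flox/flox mice, in which a tamoxifen-activated Cre under the promoter of keratin 8, a luminal keratin, acts on a floxed locus of 2 microRNAs. The Ctrl library came from miR-200c/141-flox/flox mice, which carry the same floxed alleles and no Cre. Both were C57BL/6, received tamoxifen at 8 to 10 weeks of age and were sampled 4 weeks later, with mammary cells enriched by FACS. The age label reads 8 weeks, and the labels state neither how many mice were pooled nor the stage of the estrous cycle. Since Krt8 marks luminal cells, basal and endothelial cells of the cKO library are not where this Cre is designed to act.

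Estrogen and progesterone receptors are ligand-activated transcription factors that, in the mammary gland, are found in the hormone-sensing class of luminal cells. These cells pass the steroid signal to their neighbours by secreted factors such as amphiregulin, Wnt4 and RANKL (Tnfsf11). Luminal progenitors give rise to milk-producing alveoli, in which prolactin acts through Jak2 and Stat5. The glucocorticoid receptor is present in most cell types, and growth hormone signals through a receptor of the same cytokine family as the prolactin receptor.

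There was 1 library per group, so no test between the groups was possible. Every interval given here is a 95% interval for counting error alone, with no account of the spread between mice. Intervals of levels and of ratios treat each UMI as independent, so they leave out the spread between cells too. Levels are counts of unique molecular identifiers (UMIs) summed over the cells of a class and scaled to 1000000 UMIs (CPM). UMIs of a 3′ library count tagged molecules and are not scaled to gene length, so levels are compared across cells and libraries and not between receptors. After filtering, 5438 cKO cells with 101201595 UMIs and 3389 Ctrl cells with 92855802 UMIs were kept, and the median cell held 13905 UMIs in cKO and 19799 in Ctrl. The libraries shared 6 barcode sequences. Neither microRNA gene is among the counted features, so the deletion itself was not checked here.

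Cells were sorted into classes by marker genes, none of them a receptor of the set. The cKO library held 1249 hormone-sensing, 1138 luminal-progenitor, 1382 both-program, 966 basal and 509 endothelial cells, and the Ctrl library 545, 724, 866, 1073 and 108 of the same classes. The gates fix which markers are high in a class, so these sums only describe it. The 8 hormone-sensing markers summed to 7630 CPM in cKO and 6183 CPM in Ctrl hormone-sensing cells, against 256 and 204 CPM in the luminal progenitors of cKO and Ctrl. The 8 endothelial markers summed to 2509 CPM in cKO and 2930 CPM in Ctrl endothelial cells. The classes are ranges of a score: 76 cKO and 26 Ctrl hormone-sensing cells, and 147 cKO and 80 Ctrl both-program cells, lay within 0.1 of a cut-off. Both-program cells passed the hormone-sensing and the luminal-progenitor gate at once. Their median was 28029 UMIs in cKO and 48327 UMIs in Ctrl, 1.13 and 1.18 times the sum of the medians of hormone-sensing and luminal-progenitor cells. Scrublet marked 1.0% of cKO and 0.79% of Ctrl cells against rates of 4.39% and 2.73% at an assumed 0.8% per 1000 cells. Undetected pairs of cells may remain, and their part in the both-program class was not tested.

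The deleted locus makes miR-200c and miR-141, and their mature sequences differ in the seed, the bases that pair with a target. They are shown because they set which receptor messages hold a matching site. RefSeq places both on the minus strand of chromosome 6 in build GRCm38.p6, miR-200c-3p at chr6:124718324-124718346 and miR-141-3p at chr6:124717917-124717938. Capitals mark the seed, bases 2 to 8.
miR-200c-3p: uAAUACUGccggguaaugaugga
miR-141-3p: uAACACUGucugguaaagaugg

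Sites complementary to the seeds, CAGTATT for miR-200c and CAGTGTT for miR-141, were searched on the sense strand of the annotated 3′ untranslated region, taking the longest per gene. Among 20986 genes with such a region, the miR-200c match occurred in 13.3% and the miR-141 match in 17.2%. Esr1 held neither in 4191 bases. Nr3c1 held 3 miR-200c and 2 miR-141 sites in 3937 bases. Pgr held 1 miR-200c site in 3473 bases, Prlr 1 miR-141 site in 7742 bases and Ghr 1 miR-200c site in 1982 bases. These 3 sites are printed in the sense direction, with the match in capitals. Longer regions hold more chance matches, and the Prlr region was longer than that of 99.2% of genes. A match describes the sequence and was not tested as a site of action.
Pgr, chr9:8968450-8968476, plus strand: atgtcatgccCAGTATTgttttgtgga
Prlr, chr15:10329896-10329922, plus strand: atcatgccccCAGTGTTttcttaaggt
Ghr, chr15:3318447-3318473, minus strand: aagtagtaagCAGTATTtcaatgcttc

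Esr1 encodes estrogen receptor alpha and lies on chromosome 10 (chr10:4611593-5005614, plus strand). In hormone-sensing cells it had 40.7 CPM in cKO (717 UMIs, interval 37.8 to 43.8) and 38.7 CPM in Ctrl (498 UMIs, 35.4 to 42.3). Luminal progenitors had 3.39 CPM in cKO and 4.67 CPM in Ctrl, basal cells 3.10 and 2.14 CPM, and endothelial cells 1.89 and 0.795 CPM, the last from 2 UMIs. Esr1 was thus 12.0-fold higher in hormone-sensing cells than in luminal progenitors of the cKO library (9.17 to 16.0) and 8.29-fold higher in the Ctrl library (6.56 to 10.6). Of all genes, 33.2% in cKO and 31.0% in Ctrl were at least 1.5-fold higher in hormone-sensing cells than in luminal progenitors. The same share was 14.9% in cKO and 12.0% in Ctrl against both-program cells, 37.2% and 39.0% against basal cells, and 37.6% and 45.1% against endothelial cells. At the low end of the order, luminal progenitors and basal cells of cKO did not differ beyond counting error (ratio 1.09, 0.669 to 1.84), while in Ctrl luminal progenitors were 2.19-fold above basal cells (1.4 to 3.51). Counting error covered the difference between basal and endothelial cells in each library.

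Between the libraries, the Esr1 ratio of cKO over Ctrl in hormone-sensing cells was 1.05 (0.937 to 1.18). An interval around 1 bounds the difference between these 2 pools of cells and does not show that the genotypes have equal levels. In luminal progenitors the ratio was 0.726 (0.510 to 1.03) and in both-program cells 0.934 (0.858 to 1.02). Of all genes compared in hormone-sensing cells, 31.9% differed at least 1.5-fold in either direction, and the share was 20.7% in luminal progenitors, 29.0% in both-program cells, 18.6% in basal cells and 29.2% in endothelial cells. Esr1 passed that fold in endothelial cells alone, on 24 UMIs in both libraries together, with an interval of 0.584 to 20.9.

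Pgr encodes the progesterone receptor, and its transcription is itself induced by estrogen. It lies on chromosome 9 (chr9:8899833-8968611, plus strand). Hormone-sensing cells had 90.6 CPM in cKO (1595 UMIs, 86.2 to 95.1) and 88.9 CPM in Ctrl (1143 UMIs, 83.8 to 94.2), a ratio of 1.02 (0.944 to 1.10). Luminal progenitors had 7.26 CPM in cKO and 8.84 CPM in Ctrl, and basal cells 3.36 and 2.69 CPM. Endothelial cells had 1.46 CPM in cKO and no UMI in 2514874 Ctrl UMIs, for which a limit of 3 counts gives 1.19 CPM and the exact interval reaches 1.47 CPM, a range that includes the cKO value. Each library held the same order, hormone-sensing over both-program over luminal-progenitor over basal over endothelial, and every step of it was larger than counting error. Pgr in hormone-sensing cells exceeded luminal progenitors 12.5-fold in cKO (10.4 to 15.1) and 10.1-fold in Ctrl (8.5 to 12.0).

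Prlr encodes the prolactin receptor (chr15:10177238-10349180, plus strand), and 3′ counts do not tell its long and short isoforms apart. It had 1278 CPM in cKO hormone-sensing cells (22497 UMIs, 1261 to 1294) and 1203 CPM in Ctrl (15468 UMIs, 1184 to 1222). Luminal progenitors had 67.0 CPM in cKO and 80.4 CPM in Ctrl, so that hormone-sensing cells were 19.1-fold higher in cKO (18 to 20.2) and 15-fold higher in Ctrl (14.2 to 15.8). The luminal-progenitor level includes cells just under the hormone-sensing cut-off of 0.5, described further on. The libraries differed by a ratio of 1.06 in hormone-sensing cells (1.04 to 1.08) and 0.834 in luminal progenitors (0.771 to 0.902). These intervals exclude 1, yet both ratios are under the 1.5-fold used for a call. They also leave out the spread between cells, and few luminal progenitors held most of the Prlr UMIs of their class. Thinned to 5000 UMIs, the share of luminal progenitors with Prlr was 15.1% in cKO (12.9 to 17.4) and 15.4% in Ctrl (12.8 to 18.3).

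The size of these class differences rested on the gate. In another gate Cited1, Areg and Wnt4, genes that answer to estrogen or progesterone, were left out of the hormone-sensing markers. Its cut-off was set at 0.3 on the score of this shorter list, against 0.5 on the full list. The log2 ratio of hormone-sensing cells over luminal progenitors then became smaller for Esr1, Pgr and Prlr. For Prlr it was 2.78 in cKO and 2.08 in Ctrl with the shorter list, against 4.25 and 3.90 with the full list. For Esr1 it was 2.98 in cKO and 2.02 in Ctrl, against 3.58 and 3.05, and for Pgr 2.42 and 1.88, against 3.64 and 3.33. The list and the cut-off changed together, so their parts cannot be told apart. For Esr1, Pgr and Prlr, hormone-sensing cells were the higher class under both settings, and for Nr3c1 they were the lower class under both.

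In luminal progenitors Prlr was carried by a small share of cells. Its median was 12.1 per 10000 UMIs of a cell in cKO and 10.4 in Ctrl hormone-sensing cells, and 0 in luminal progenitors of both libraries. The 10% of luminal progenitors richest in Prlr held 79.5% of that class's Prlr UMIs in cKO and 84.3% in Ctrl. This ranking used UMIs without thinning, so deep cells rank higher. It is not particular to the class: in basal cells, where Prlr UMIs are few, the same 10% held 91.3% in cKO and 100% in Ctrl. Cells with at least 5 Prlr UMIs per 10000 made up 2.28% of luminal progenitors in cKO (1.5 to 3.33) and 3.45% in Ctrl (2.25 to 5.06). Among hormone-sensing cells they made up 86.7% in cKO and 88.4% in Ctrl. Luminal progenitors with a hormone-sensing marker score from 0.25 up to the cut-off of 0.5, which were 212 cKO and 131 Ctrl cells, held 70.7% of the class's Prlr UMIs in cKO and 79.3% in Ctrl. Their Prlr level was 220 CPM in cKO and 291 CPM in Ctrl, against 25 and 21.3 CPM in luminal progenitors of cKO and Ctrl that scored below 0.25. Esr1 in the cells near the cut-off was 10.4 CPM in cKO and 13.6 CPM in Ctrl, and below 0.25 it was 1.49 and 2.16 CPM.

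Prlr in basal cells was 14.9 CPM in cKO (115 UMIs) and 5.94 CPM in Ctrl (75 UMIs), a ratio of 2.50 (1.85 to 3.39). It was the only receptor of the set past 1.5-fold in that class. Of all genes tested in basal cells, 9.74% were at least 1.5-fold higher in cKO and 8.89% lower. Hormone-sensing cells were 85.9-fold above basal cells in cKO and 202-fold in Ctrl, and free RNA from other cells can add UMIs in droplet data. The hormone-sensing markers in basal cells, all 8 of them detected in each library, summed to 157 CPM in cKO and 133 CPM in Ctrl. The part of such RNA in the Prlr difference was not tested. Endothelial cells had 6.79 CPM of Prlr in cKO and 3.58 CPM in Ctrl, from 79 and 9 UMIs, with an interval of the ratio from 0.95 to 4.30.

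**Figure D1:**
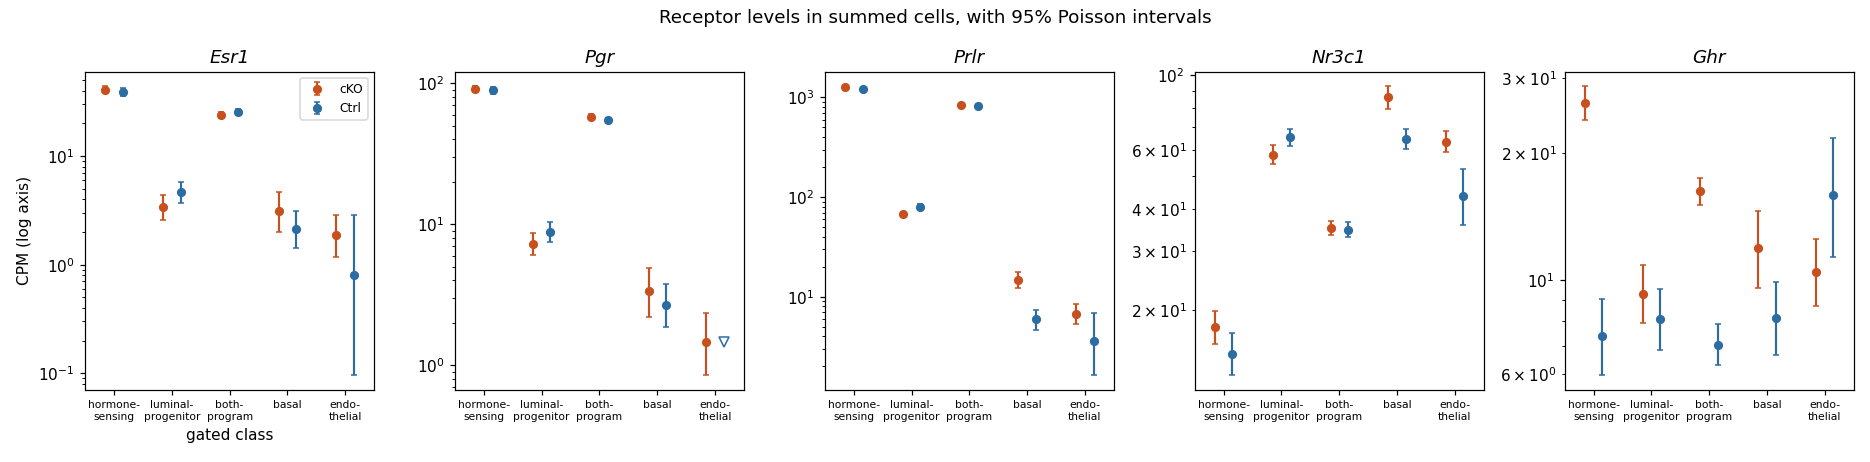
Level of each receptor in CPM (log axis, a scale of its own per panel) in the 5 cell classes of the cKO and Ctrl libraries, with 95% Poisson intervals; the open triangle is the upper bound of the interval for Pgr in Ctrl endothelial cells, where no UMI was found. Esr1, Pgr and Prlr are highest in hormone-sensing cells of both libraries, Nr3c1 is lowest there, and Ghr in those cells is 26.2 CPM in cKO and 7.39 CPM in Ctrl.

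Nr3c1, on chromosome 18, encodes the glucocorticoid receptor and had the opposite distribution. Its level was 17.8 CPM in cKO (314 UMIs, 15.9 to 19.9) and 14.9 CPM in Ctrl hormone-sensing cells (191 UMIs, 12.8 to 17.1), the lowest of the classes in each library. Luminal progenitors had 58.1 CPM in cKO and 65.3 CPM in Ctrl, basal cells 86.0 and 64.6 CPM, and endothelial cells 63.4 and 43.7 CPM. Hormone-sensing cells thus had 0.307 times the level of luminal progenitors in cKO (0.269 to 0.349) and 0.227 times in Ctrl (0.194 to 0.265). Basal cells led in cKO, 1.36-fold above the endothelial cells (1.22 to 1.51). In Ctrl, luminal progenitors and basal cells were level within counting error (ratio 1.01, 0.924 to 1.11).

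Between the libraries no Nr3c1 ratio reached 1.5-fold. It was 1.20 in hormone-sensing cells (1.0 to 1.44), 0.890 in luminal progenitors (0.817 to 0.969), 1.01 in both-program cells, 1.33 in basal cells (1.20 to 1.48) and 1.45 in endothelial cells (1.19 to 1.79). The widest of these ratios, in endothelial cells, rests on 738 UMIs in cKO and 110 UMIs in Ctrl.

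Ghr encodes the growth hormone receptor (chr15:3317760-3583492, minus strand) and was the receptor whose hormone-sensing level differed most between the libraries. Hormone-sensing cells had 26.2 CPM in cKO (461 UMIs, 23.8 to 28.7) and 7.39 CPM in Ctrl (95 UMIs, 5.98 to 9.03), a ratio of 3.54 (2.84 to 4.47). Both-program cells had 16.2 CPM in cKO (723 UMIs) and 7.06 CPM in Ctrl (321 UMIs), a ratio of 2.30 (2.01 to 2.63), where 11.4% of all genes were at least 1.5-fold higher and 17.6% lower. Luminal progenitors were close, with 9.31 CPM in cKO and 8.11 CPM in Ctrl (ratio 1.15, 0.910 to 1.45). Basal cells had 11.9 CPM in cKO and 8.16 CPM in Ctrl (ratio 1.46, 1.09 to 1.95). In endothelial cells, where 19.4% of all genes were higher and 9.76% lower, the ratio was 0.659 (0.458 to 0.967). They had 10.5 CPM in cKO and 15.9 CPM in Ctrl, which was 40 UMIs in 108 Ctrl cells.

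The order of classes for Ghr therefore differed between the libraries. In cKO, hormone-sensing cells stood first, 2.81-fold above luminal progenitors (2.34 to 3.39). Both-program cells came next, 1.36-fold above basal cells (1.10 to 1.71). The steps from basal to endothelial cells and from endothelial cells to luminal progenitors were within counting error. In Ctrl, endothelial cells stood first, 1.95-fold above basal cells (1.32 to 2.83), and the 4 epithelial classes did not differ beyond counting error from one class to the next. Ghr in Ctrl hormone-sensing cells was 0.911 times that in luminal progenitors (0.696 to 1.19). Of the genes tested in hormone-sensing cells, 14.5% were at least 1.5-fold higher in cKO and 17.4% at least 1.5-fold lower, so that a rise past the fold in 1 of 5 receptors is near the share of all genes.

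Within the hormone-sensing cells of cKO, Ghr was higher in cells with transcripts of motile cilia. This split was made after the values had been seen. It used Foxj1, the regulator of motile cilia, Dynlrb2, a dynein light chain, and Pifo, a ciliary protein. Cells with at least 1 UMI of these genes were 230 of 1249 in cKO (18.4%) and 5 of 545 in Ctrl (0.917%). Both-program cells held such UMIs in 19.0% of cKO and 3.46% of Ctrl cells, basal cells in 4.45% and 4.10%, and luminal progenitors in 1.93% and 0.967%, without thinning. Hormone-sensing cells of cKO with cilia UMIs had 45.5 CPM of Ghr, against 20.9 CPM in cells without (18.5 to 23.4). They also had more Esr1, 57.4 against 36.1 CPM, and less Nr3c1, 11.1 against 19.7 CPM. For Pgr the values were 79.2 and 93.7 CPM, and for Prlr 1227 and 1291 CPM. Without these cells, the log2 ratio of Ghr between cKO and Ctrl was 1.51 in hormone-sensing cells, against 1.83 with them, and that of Esr1 was -0.11, against 0.07. Ghr was 7.31 CPM in Ctrl cells without cilia transcripts.

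Other cell types' markers also differed in the hormone-sensing cells, and their part in the receptor values was not tested. Endothelial markers summed to 19.4 CPM in cKO and 5.37 CPM in Ctrl, with Egfl7 at 15 and 4.12 CPM and Emcn, Cldn5, Tie1 and Esam at 0 in Ctrl. Immune markers summed to 5.0 CPM in cKO and 0.389 CPM in Ctrl, with Ptprc, Cd3e and Cd79a at 0 in each. Basal markers summed to 79.2 CPM in cKO and 43.9 CPM in Ctrl, with Oxtr and Trp63 at 0 in Ctrl. The fibroblast list, at 318 CPM in cKO and 451 CPM in Ctrl, was almost wholly Dcn, with 317 and 450 CPM, while Lum was at 0 in each. The luminal-progenitor markers stood at 556 CPM in cKO and 565 CPM in Ctrl. In cKO the summed Ghr level was 10.5 CPM in endothelial cells and 26.2 CPM in hormone-sensing cells. The Ghr level of fibroblasts, pericytes and cells without a class is not given. The part of RNA from any other cell type in the Ghr difference was not tested.

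Both-program cells lay between the other luminal classes for every receptor in cKO. For Ctrl this held for all receptors but Ghr. The joined RNA of a hormone-sensing cell and a luminal progenitor, each of median UMIs, would hold the mean of their levels weighted by those UMIs. Esr1 in both-program cells was 1.06 times that mean in cKO and 1.16 times in Ctrl. Pgr stood at 1.17 times the mean in cKO and 1.10 in Ctrl, Prlr at 1.2 and 1.3, Nr3c1 at 0.934 and 0.875, and Ghr at 0.908 and 0.911. The class held 55.4% of the Esr1 UMIs of the cKO library and 65.0% of those of Ctrl, beside 44.0% and 49.0% of all UMIs.

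Total scaling can shift all ratios of a class together. With edgeR's trimmed mean of M values (TMM) the log2 ratios of luminal progenitors and of both-program cells moved by 0.11 each. On that scale the luminal progenitors had log2 ratios of -0.35 for Esr1, -0.17 for Pgr, -0.15 for Prlr, -0.05 for Nr3c1 and 0.31 for Ghr. In both-program cells Esr1 stood at 0.01, where total scaling gave -0.10, and Ghr at 1.31.

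To compare detection per cell at equal depth, each cell was thinned to 5000 UMIs, which left out 129 cKO and 25 Ctrl hormone-sensing cells. Esr1 was then found in 17.6% of cKO hormone-sensing cells (15.4 to 19.9) and 19.8% of Ctrl ones (16.5 to 23.5). Pgr was found in 32.0% of them in cKO and 32.5% in Ctrl, and Prlr in 97.0% and 96.7%. The differences were -2.22 points for Esr1 (-6.43 to 1.74), -0.54 for Pgr (-5.46 to 4.25) and 0.23 for Prlr (-1.46 to 2.32). These rest on 1 random draw. Averaged over all draws, the differences were -0.9 points for Esr1, -0.41 for Pgr and -0.78 for Prlr. Without thinning, the Esr1 shares were 38.5% in cKO and 52.8% in Ctrl and those of Pgr 58.7% and 69.0%, at median depths of 12548 UMIs in cKO and 20881 UMIs in Ctrl.

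The same shares in cells that should lack a receptor give the background. Esr1 was found in 1.4% of basal cells in cKO and 0.919% in Ctrl, and Pgr in 1.78% and 1.23%. In luminal progenitors Esr1 was found in 1.74% of cells in cKO (1.03 to 2.73) and 2.16% in Ctrl (1.21 to 3.54), intervals that overlap those of basal cells (0.7 to 2.49 in cKO and 0.421 to 1.74 in Ctrl), although the summed Ctrl level was above that of basal cells. Prlr in luminal progenitors, at 15.1% in cKO and 15.4% in Ctrl, stood above its share in basal cells, 6.23% and 3.88%. In Ctrl endothelial cells 0 of 100 had an Esr1 or a Pgr UMI, for which a limit of 3 counts gives a share of up to 3.0% and the Clopper-Pearson interval reaches 3.62%. Before thinning, the median basal cell had 7273 UMIs in cKO and 10262 in Ctrl.

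Ghr was found in 11.8% of cKO hormone-sensing cells (9.96 to 13.8) and 3.08% of Ctrl ones (1.77 to 4.95), a difference of 8.71 points (6.15 to 11.1). Ghr was found in 5.34% of basal cells in cKO and 4.39% in Ctrl, so its share in Ctrl hormone-sensing cells was not above that of basal cells. Unthinned, the hormone-sensing shares were 26.3% in cKO and 14.7% in Ctrl. Leaving out the cells with cilia transcripts before a new thinning gave 9.20% in cKO and 3.30% in Ctrl. Nr3c1 was found in 7.23% of these cells in cKO and 5.38% in Ctrl, against 25.1% and 26.8% of luminal progenitors and 29.6% and 26.0% of basal cells. The difference in hormone-sensing cells, 1.85 points (-0.82 to 4.18), turned to -1.09 points when cells were thinned to 10000 UMIs. Unthinned, Nr3c1 was found in 19.1% of hormone-sensing cells in cKO and 25.5% in Ctrl.

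**Figure D2:**
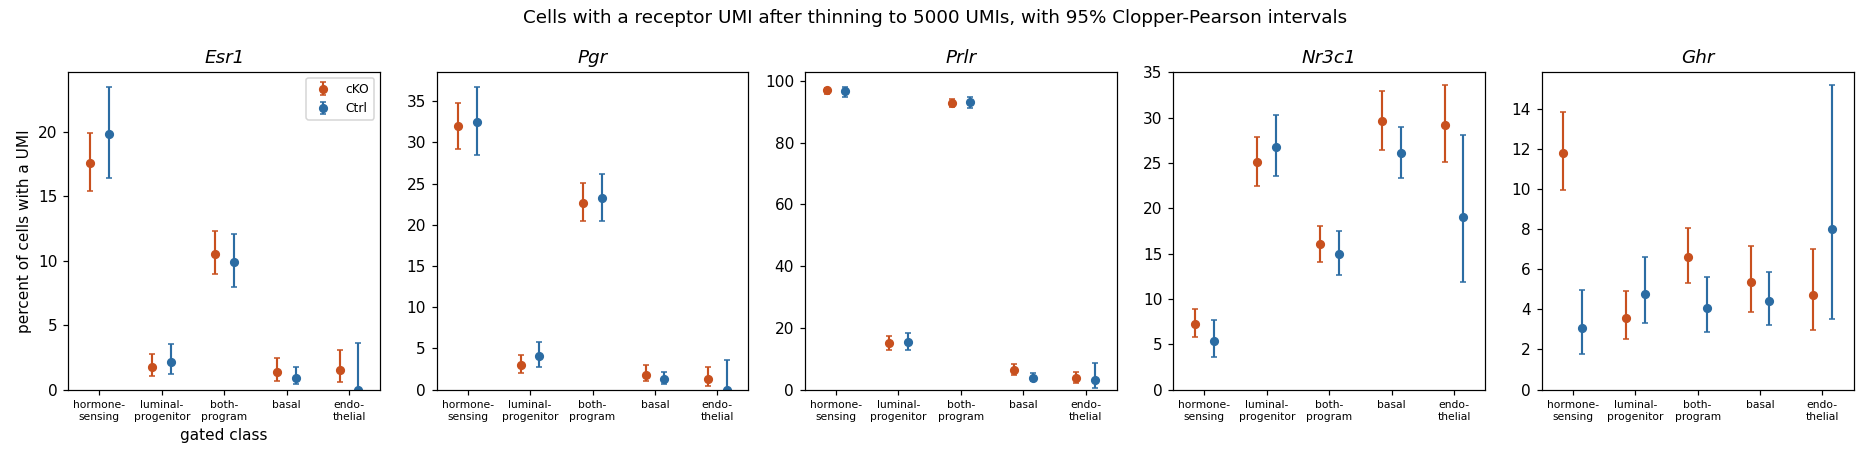
Percent of cells with at least 1 UMI of each receptor after thinning every cell to 5000 UMIs, by cell class and library, with 95% Clopper-Pearson intervals. Esr1, Pgr and Prlr shares lie within each other's intervals in hormone-sensing cells, and the Ghr share there is 11.8% in cKO and 3.08% in Ctrl.

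Joint detection in single hormone-sensing cells was measured on the same thinned counts. Pgr was found in 34.0% of cKO cells with an Esr1 UMI and 31.5% of those without, a difference of 2.48 points (-4.48 to 9.94). In Ctrl it was found in 35.9% of cells with and 31.7% of cells without, a difference of 4.27 points (-5.50 to 14.8). Thinned to 10000 UMIs, which left out the shallower cells, the difference was 5.27 points in cKO (-1.84 to 12.3) and 13.5 points in Ctrl (3.69 to 22.9). Thinned to 2000 UMIs it was 0.15 points in cKO (-6.14 to 8.55) and -5.89 points in Ctrl (-12.4 to 6.52). The interval thus included 0 at every depth in cKO, and in Ctrl at 2000 and 5000 but not at 10000 UMIs. Esr1, Pgr and Prlr were found together in 5.80% of cKO cells (4.51 to 7.34) and 6.73% of Ctrl cells (4.73 to 9.24), beside products of the single shares of 5.45% and 6.23%. None of these receptors was found in 1.88% of cKO and 1.92% of Ctrl hormone-sensing cells.

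Ghr was found more often in cKO cells that held an Esr1 UMI, in 20.3% of them (14.9 to 26.6), than in those that did not, in 9.97% (8.11 to 12.1). The difference was 10.3 points (4.89 to 16.8), with 8.46 points at 10000 UMIs (2.47 to 14.8) and 3.98 points at 2000 UMIs (-0.14 to 10.8). In Ctrl it was 4.85% of cells with and 2.64% of cells without, a difference of 2.22 points (-1.21 to 8.34) that rests on 16 cells with Ghr. Part of the cKO pattern moved with the cilia transcripts. Among cKO cells with a cilia UMI, Esr1 was found in 45.1% of those with Ghr (31.1 to 59.7) and 23.4% of those without (17.2 to 30.5). Among cKO cells lacking cilia UMIs it was found in 21.0% of those with Ghr (12.7 to 31.5) and 14.4% of those without (12.0 to 17). With the cilia cells left out before a new thinning, the difference in Ghr by Esr1 was 2.10 points (-2.58 to 8.46). A new thinning is also a new random draw, which this interval does not cover. In Ctrl, where only 5 cells were left out, Pgr by Esr1 went from 4.27 to -1.01 points. The split by cilia UMIs given before it was made on the first draw. On that draw, in cKO cells lacking cilia UMIs, Esr1 was found in 17 of 81 cells with Ghr and 118 of 821 without. The change to 2.10 points joins the loss of the cilia cells and the new draw, and their sizes were not computed. Nr3c1 was found about as often with Esr1 as without, in 7.11% and 7.26% of cKO cells and 4.85% and 5.52% of Ctrl cells.

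In luminal progenitors the rare receptor-positive cells shared receptors. Prlr was found in 9 of 18 cKO cells with an Esr1 UMI (interval 26.0% to 74.0%) and 14.5% of the others, and in 7 of 15 such Ctrl cells (interval 21.3% to 73.4%) and 14.7% of the others. Among cells with a Pgr UMI, Prlr was found in 61.3% in cKO and 42.9% in Ctrl, beside 13.6% and 14.3% of cells without. Of the luminal progenitors, 72 in cKO and 38 in Ctrl lay within 0.1 of the gate. The part of cells near the gate in this sharing was not tested.

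**Figure D3:**
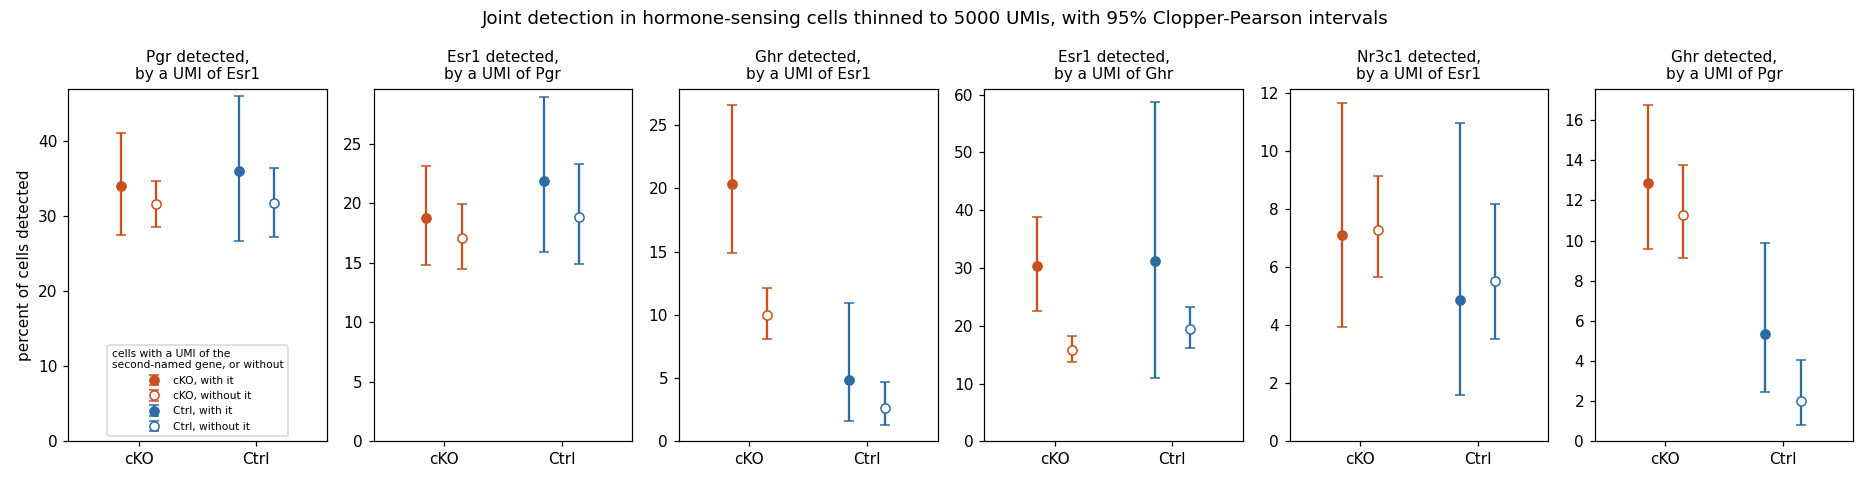
Percent of thinned hormone-sensing cells in which the first-named receptor is detected, split by whether the cell holds a UMI of the second-named one (filled, with; open, without), for cKO and Ctrl, with 95% Clopper-Pearson intervals. At this depth of 5000 UMIs the intervals of Pgr by Esr1 overlap in both libraries, and Ghr by Esr1 stands apart in cKO, at 20.3% and 9.97%.

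Luminal cells were also ranked by their hormone-sensing marker score, the mean log level of the 8 markers, without gating on luminal-progenitor markers. Prlr climbed with the score in each library. Below 0.25 it was 27.3 CPM in cKO and 21.3 CPM in Ctrl. Between 0.75 and 1 it was 746 CPM in cKO and 752 CPM in Ctrl. At 1.5 and over it was 1537 CPM in cKO (1498 to 1576) and 1333 CPM in Ctrl (1291 to 1376). Esr1 was 1.55 CPM in cKO and 2.13 CPM in Ctrl in the lowest bin, and 47.6 and 41.5 CPM in the highest. Pgr was 3.48 CPM in cKO and 3.77 CPM in Ctrl in the lowest bin, and 91.4 and 93.9 CPM in the highest. Nr3c1 ran the other way, at 58.8 CPM in cKO and 66.0 CPM in Ctrl in the lowest bin and 16.6 and 21.8 CPM in the highest.

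Ghr did not climb steadily with the score. In cKO it was 9.03 CPM below 0.25, 12.8 CPM from 0.25 to 0.5, and between 17.9 and 19.9 CPM in every bin above 0.5. In Ctrl it stayed between 5.64 and 8.96 CPM over all bins. The libraries were thus within counting error of each other in cells with the lowest score, at 9.03 CPM in cKO (7.50 to 10.8) and 8.25 CPM in Ctrl (6.81 to 9.89), and apart in every bin above 0.5. Bins above 0.5 pool hormone-sensing and both-program cells, whose Ghr levels in cKO were 26.2 and 16.2 CPM. The mix of these classes in each bin is not given, and its part in the curves of all receptors was not tested.

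**Figure D4:**
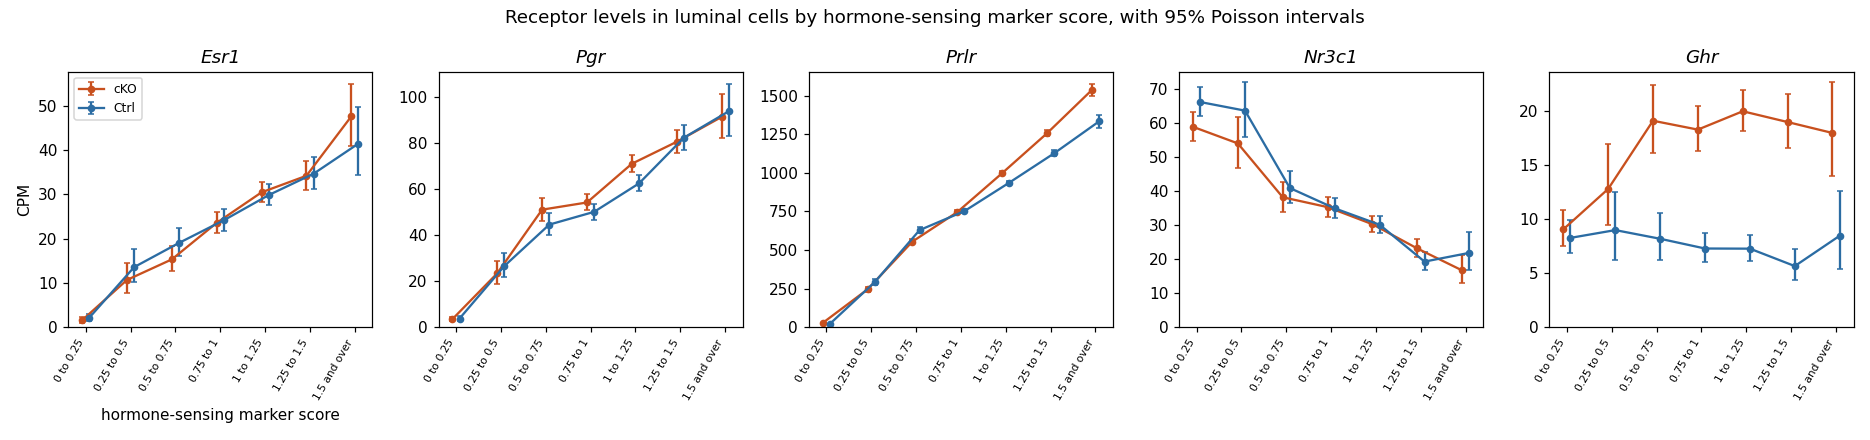
Receptor level in CPM (linear axes from 0) in luminal cells by bin of the hormone-sensing marker score, for cKO and Ctrl, with 95% Poisson intervals. Esr1, Pgr and Prlr climb with the score, Nr3c1 falls with it, and the Ghr curves separate above a score of 0.5.

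Genes that work with these receptors were counted in hormone-sensing cells by lists, where a call is a ratio of at least 1.5-fold and needs at least 20 UMIs. Over all 12261 genes the median log2 ratio of cKO over Ctrl was -0.06 and 31.9% were called. Among 14 measured glucocorticoid-response genes, cKO was higher for 2 and lower for 7, and the median was -0.60. Named by a rule of largest ratio, Tsc22d3, which encodes the anti-inflammatory protein GILZ, had 4.54 CPM in cKO and 63.0 CPM in Ctrl (log2 ratio -3.79, -4.14 to -3.46). Fkbp5, a co-chaperone of steroid receptors, had 3.41 CPM in cKO and 22.8 CPM in Ctrl. Zbtb16, a zinc-finger transcription factor, had 0.909 CPM in cKO and 8.63 CPM in Ctrl. Hsd11b2, the enzyme that inactivates glucocorticoids, had 1 UMI in cKO and 414 UMIs in Ctrl, a log2 ratio of -9.15 (-14.45 to -6.66). Errfi1, an inhibitor of EGF receptor signalling, and Nfkbia, the inhibitor of NF-kappaB, were the genes higher in cKO.

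The glucocorticoid-response genes had a lower median in cKO hormone-sensing cells, where Nr3c1 itself was 17.8 CPM in cKO and 14.9 CPM in Ctrl. The list was set by name, and which hormone or receptor its members answered to in these cells was not tested. Its median is therefore not a measure of glucocorticoid receptor activity. In basal cells, whose Nr3c1 level was the highest of cKO, 5 of 12 measured members were higher in cKO and 0 lower, with a median of 0.11, where 9.74% of all genes were higher and 8.89% lower. There Tsc22d3 had 7.11 CPM in cKO and 7.92 CPM in Ctrl, and Fkbp5 3.36 CPM in cKO and 3.80 CPM in Ctrl. In luminal progenitors 1 of 14 was higher and 5 lower, where 6.83% of all genes were higher and 13.9% lower, and Tsc22d3 had 6.20 CPM in cKO and 11.5 CPM in Ctrl.

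Among 15 estrogen- and progesterone-response genes, cKO was higher for 5 and lower for 5, and the median was -0.01. Calca, which encodes calcitonin, had 18 UMIs (1.02 CPM) in cKO and 44478 UMIs (3458 CPM) in Ctrl, the widest difference of the list, with a log2 ratio of -11.72 (-12.48 to -11.06). Tnfsf11, the RANKL signal that relays progesterone to neighbouring cells, had 3 UMIs in cKO and 160 UMIs in Ctrl (log2 ratio -6.19, -8.48 to -4.62). In the other direction, Cxcl12, a chemokine, had 37.4 CPM in cKO and 1.17 CPM in Ctrl (log2 ratio 5.0, 4.27 to 5.85). Igfbp4, a binding protein of insulin-like growth factors, had 7.84 CPM in cKO and 0.467 CPM in Ctrl. Greb1, an estrogen-induced cofactor of the estrogen receptor, had 53.9 CPM in cKO and 16.1 CPM in Ctrl. Pgr, a member of this list and of the receptors, stayed within 1.5-fold. Areg, Wnt4, Cited1 and Stc2 belong to the list and to the gate, so their values among gated cells are not independent of the gate.

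Among 14 measured genes of prolactin and growth hormone signalling, cKO was higher for 4 and lower for 6, and the median was -0.51. Jak2, the kinase bound to both cytokine receptors, was lower at 31.5 CPM in cKO and 54.9 CPM in Ctrl. Its targets Stat5a and Stat5b were lower too, with Stat5a at 76.0 CPM in cKO and 137 CPM in Ctrl. Socs2, an inhibitor of growth hormone signalling, had 88.3 CPM in cKO and 169 CPM in Ctrl, while Socs1, a related inhibitor, had 24.2 CPM in cKO and 10.1 CPM in Ctrl. The rule also named Irs1, an adaptor of insulin receptors, with 5.96 CPM in cKO and 1.79 CPM in Ctrl. Elf5, an alveolar transcription factor and a marker of the luminal-progenitor gate, had 5.11 CPM in cKO and 2.41 CPM in Ctrl. Igf1r, which is also in the list of other receptors, had 1.14 CPM in cKO and 2.33 CPM in Ctrl. Jak2, Stat5a, Stat5b and Socs2 were added after their values were seen. In luminal progenitors 1 of 14 was higher and 1 lower, where 6.83% of all genes were higher and 13.9% lower, with Stat5a at 16.0 CPM in cKO and 19.6 CPM in Ctrl.

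Among 17 steroid receptor cofactors and chaperones, cKO was higher for 1 and lower for 5, and the median was -0.17. The called share of this list, 35.3%, was near the 31.9% of all genes. With TMM scaling the split was 2 higher and 3 lower. Ncoa1, a coactivator of nuclear receptors, had 8.29 CPM in cKO and 17.9 CPM in Ctrl. Hsp90aa1, a chaperone of steroid receptors, had 395 CPM in cKO and 672 CPM in Ctrl. The gene higher in cKO was Greb1, and Fkbp5 was among the lower ones. So was Foxa1, which belongs to the hormone-sensing gate, so its value among gated cells is not independent of the gate. Among 13 other hormone receptors measured, cKO was higher for 2 and lower for 3, and the median was 0.00. Their called share, 38.5%, was also near that of all genes. Vdr, the vitamin D receptor, had 7.44 CPM in cKO and 44.9 CPM in Ctrl (log2 ratio -2.59, -2.88 to -2.32). Thra, thyroid hormone receptor alpha, had 35.3 CPM in cKO and 16.5 CPM in Ctrl, and Nr3c2, the mineralocorticoid receptor, 5.74 CPM in cKO and 3.34 CPM in Ctrl. Esr2, estrogen receptor beta, also chosen after its values were seen, had no UMI in these cells of either library.

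**Figure D5:**
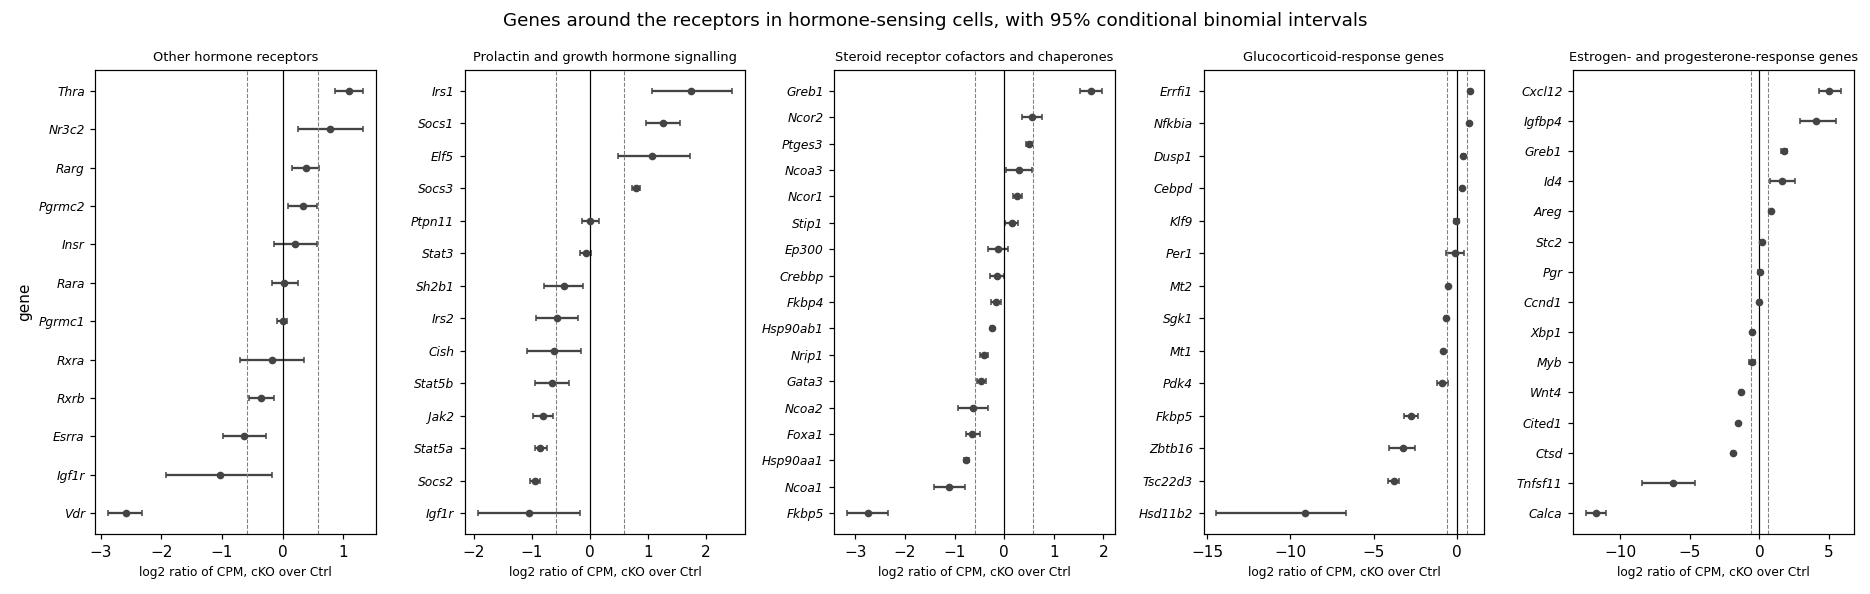
Log2 ratio of CPM, cKO over Ctrl, in hormone-sensing cells for the measured members of 5 gene lists (1 member of the first list is not shown), each axis with its own range, with 95% conditional binomial intervals; dashed lines mark 1.5-fold in either direction. Calca, Tnfsf11, Hsd11b2, Tsc22d3, Zbtb16 and Fkbp5 lie far to the left, and Cxcl12 and Igfbp4 far to the right.

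Across the 5 classes of 2 libraries, 10 points that share libraries and cells, likeness was measured by Pearson's r of log2(CPM + 1) among 12156 genes as a description. Esr1 and Pgr had an r of 0.99 with each other, Esr1 and Prlr 0.97, Esr1 and Nr3c1 -0.83, and Ghr and Esr1 0.15. The genes most like Esr1 were Folr2, Phyh, Msx2, Dmbt1 and Ptpn5, with r from 0.997 to 0.992. Those most like Pgr were Arhgef18, Cox14, Phyh, Grk3 and Hdac11, and those most like Prlr were H2-Q2, Nrxn3, Fgb, Dus2 and Ercc4. Nr3c1 was nearest to Alg13, Cdv3, Tubb6, Timm23 and Car13. Ghr had weaker matches, with Fxyd6 first at 0.929, then Icam4, Morn5, Insig1 and Dcdc2b. Fxyd6 had 139 CPM in cKO and 11.6 CPM in Ctrl hormone-sensing cells, and 59.0 and 56.9 CPM in the endothelial cells of cKO and Ctrl.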

How the data were processed

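The authors deposited raw UMI counts for each gene in each barcode, from 10x Chromium 3′ v2 libraries per the labels' protocols. The submitters' processing notes name Cell Ranger 2 and mm10, and the file headers give software version 3.0.0. Of 31053 genes, 99.62% were found in GENCODE M21, used for positions and untranslated regions.

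The receptors and gene lists were chosen with earlier results of these data known. Cells with at least 500 genes and at most 10% mitochondrial UMIs were kept and Scrublet calls (scanpy 1.11.5, 55 cKO and 27 Ctrl cells) removed. Classes were gated on mean log(1 + UMIs per 10000) of marker lists, with cut-offs set at minima of the score distributions: 2.0 for luminal, 0.5 hormone-sensing, 0.7 luminal-progenitor, 0.7 basal and 0.4 endothelial markers. Cells classed as fibroblasts, immune cells and pericytes were 8, 4 and 11 in cKO and 3, 1 and 2 in Ctrl. Luminal, basal or endothelial cells past a fibroblast, immune or pericyte cut-off were left without a class. Cells without a class, which include others that met no gate, were 135 in cKO and 57 in Ctrl. Adipocyte and Schwann markers were read without a gate: in hormone-sensing cells adipocyte markers summed to 6.70 CPM in cKO and 5.99 CPM in Ctrl, and in endothelial cells the list was nearly all Fabp4, at 2373 and 3320 CPM.

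Levels carry exact Poisson, shares Clopper-Pearson, ratios conditional binomial and differences of shares Newcombe intervals, all 95% and for counting error only (scipy 1.17.1, statsmodels 0.14.6). A 0 is bounded by 3 counts. Thinning drew 5000 UMIs per cell without replacement. List members named are up to 4 per list with the largest ratio in hormone-sensing cells among those with at least 50 UMIs in the libraries together. Likeness was searched among genes with at least 100 UMIs, without gate markers, clone-named models and pseudogenes. The ratio and its call were tested on simulated data. Alternatives were TMM scaling (edgeR 4.0.16), other cell filters, gates, depths and count minimums, and, chosen after seeing the data, leaving out cells with cilia transcripts. 1 gene of the lists, counted in its list, is not reported here.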

Additional observations from a re-analysis of the deposited data

How the results depend on the processing

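No paired analysis was possible because each group had 1 library, and leaving out a replicate would leave no library. No result changed from a called ratio to a call in the other direction under the alternatives run, and 138 values of the main results stayed within their counting interval, or within 1.5 times for counts, while 28 did not. Of the ratios of cKO over Ctrl outside the main results, 116 values stayed within it and 10 did not. These 10 were for Pgr, Prlr or Nr3c1 in luminal progenitors or both-program cells. In luminal progenitors, Prlr had a log2 ratio of -0.60 with the shorter hormone-sensing gate, against -0.26. Pgr there had -0.86 as a mean over cells, against -0.28. The 28 values of the main results follow, and the cause was not tested.

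With cells carrying cilia transcripts left out, the log2 ratio of cKO over Ctrl was -0.11 for Esr1 in hormone-sensing cells and 0.96 for Ghr in both-program cells. In cKO the log2 ratio of hormone-sensing cells over luminal progenitors was then 4.39 for Prlr and 1.17 for Ghr, the difference in the share of hormone-sensing cells with Ghr was 5.90 points, and that in Ghr by Esr1 was 2.10 points. Both of these point differences also rest on a new random thinning. The Prlr log2 ratio in hormone-sensing cells was 0.15 with TMM scaling and 0.17 as a mean over cells. With the shorter hormone-sensing gate and its cut-off of 0.3, the log2 ratio of hormone-sensing cells over luminal progenitors in cKO was 2.98 for Esr1, 2.42 for Pgr and 2.78 for Prlr, and in Ctrl 2.02, 1.88 and 2.08; the Ctrl difference in Ghr by Esr1 was -2.73 points. Thinned to 2000 UMIs, the share differences between cKO and Ctrl were -2.28 points for Prlr and 2.28 points for Ghr, Ghr by Esr1 in cKO was 3.98 points, and Pgr by Esr1 in Ctrl was -5.89 points. Thinned to 10000 UMIs, they were -1.09 points for Nr3c1 and 16.11 points for Ghr.

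With at least 1 UMI, 6 other hormone receptors were counted as lower in cKO. There a sum of 0 was set to 3 counts, so a gene with 1 UMI in only 1 library was counted in the wrong direction. Oxtr, with 1 UMI in cKO and 0 in Ctrl, was thus counted as lower in cKO. The counts over all genes at 1 UMI share this limit. With TMM scaling the cofactor list had 2 higher and 3 lower. Over all genes, 1779 were higher and 2131 lower at 20 UMIs, 1067 and 1409 at 100 UMIs, 3178 and 4160 at 1 UMI, and 1974 and 1898 with TMM scaling at 20 UMIs. With 1 library each, mice, handling and genotype cannot be told apart. The values of Ctrl endothelial cells rest on 108 cells, and those of Ghr by Esr1 in Ctrl on 16 cells with Ghr.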
